A study of Bombyx mori with 12 samples.

Results

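The glycine-rich cuticular proteins of the silkworm Bombyx mori, named BmorCPG, were followed at the transcript level across 12 one-colour Agilent arrays. Members were taken by name, as each array sequence whose systematic name begins with BmorCPG. This gave 29 genes, BmorCPG1 to BmorCPG29, with 2 probes each (58 probes), among 32260 named sequences on the array. The series set the organ that makes juvenile hormone beside other larval tissues. CC-CA, the complex of the corpora allata, which make juvenile hormone, and the corpora cardiaca, which release neurohormones, came from day 4 of the 5th instar in 1 sample and from day 2 of the 4th instar in 2 independent samples. Epidermis, fat body, prothoracic gland, brain, midgut, Malpighian tubule and salivary gland from day 2 of the 4th instar had 1 array each. The gonads, testis and ovary, also had 1 array each and were taken later, on 5th instar day 10, 3 days into wandering. All larvae were of the commercial hybrid Kinsyu x Showa, fed mulberry leaves, and how many animals went into a sample is not stated.

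The insect cuticle is an extracellular layer of chitin fibres embedded in protein, and the epidermal cells under it secrete most of both. Its proteins fall into families by sequence motif. The largest, CPR, carries the Rebers and Riddiford consensus, through which its members bind chitin, whereas the CPG proteins lack it and are rich in short glycine repeats. Larvae lay down cuticle both before a moult and during the feeding period that follows it.

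Each array carried 43803 non-control spots. Their 75th percentile signal lay between 1402 units in fat body and 5841 units in ovary, and 60.4% to 78.6% of spots were well above background, the scanner's own mark for a spot brighter than its surroundings. A level below is log2 of a probe's processed signal minus the array's 75th percentile, so that 0 is the level of the 75th percentile spot. Each gene is represented by the brighter of its probes, and levels are compared between arrays for 1 gene, never between genes, whose probes differ. The single source of replicate spread was the pair of 4th instar CC-CA arrays, which correlated at 0.9798 over all probes. Every other array was assumed to vary like that pair, and limma moderated the spread across all probes. The labels held against their marker genes: BmJHAMT, AKH-1 and AKH-2 were highest in CC-CA, EH, corazonin and allatostatin_A in brain, AKHR in fat body and DHR in Malpighian tubule. Epidermis had no marker outside the cuticular proteins, and the CPR counts given at the end went both ways. Of BmorCPR1 to BmorCPR56, 23 were called highest in epidermis and 9 in another tissue. Of BmorCPR57 to BmorCPR148, the counts were 9 and 18. Prothoracic gland, midgut, salivary gland, testis and ovary had no marker gene here, so their labels were not checked.

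Epidermis held the most CPG transcripts. There, 24 of the 29 genes (82.8%) were well above background, against 69.1% of all probes on that array. Detection was 15 genes in the 5th instar CC-CA, 14 each in testis and ovary, and 12 each in fat body and the 4th instar CC-CA. Of all probes, 74.8%, 78.5%, 75.3%, 60.2% and 68.8% were well above background there, in the same order. The lowest level well above background ran from -7.51 in testis to -5.02 in fat body, so arrays differed in how dim a signal they could detect. Brain had 8, prothoracic gland and salivary gland 7 each, Malpighian tubule 6 and midgut 4, where 63.7% to 66.6% of all probes were well above background. The midgut share, 13.8% of the genes, stood beside 65.5% of all probes on the midgut array. BmorCPG3 was well above background on all 12 arrays. BmorCPG22, BmorCPG23, BmorCPG26 and BmorCPG29 were so on 1 array each, and BmorCPG7 on none with its representative probe. The other probe of BmorCPG7 was well above background in epidermis, at -5.43, and on no other array.

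**Figure D1:**
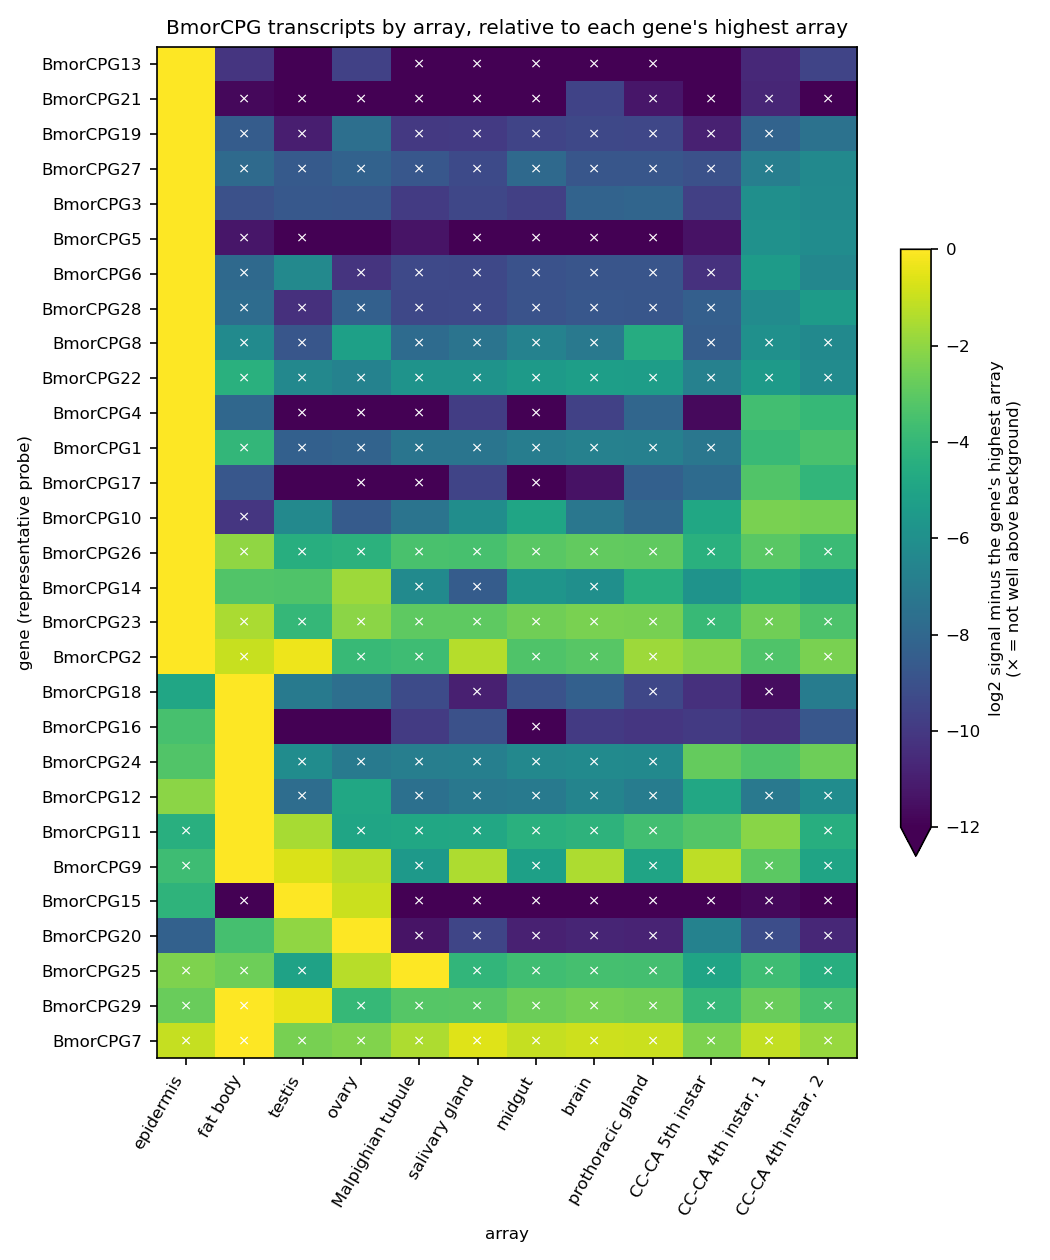
Heat map of the 29 BmorCPG genes (rows) on the 12 arrays (columns), coloured by log2 signal minus the gene's own highest array, with a cross where the scanner did not mark the probe as well above background. The upper 18 rows peak in epidermis, a lower group of 6 in fat body, and BmorCPG15 and BmorCPG20 in the gonads.

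By highest level among the 10 tissues, with CC-CA taken at the 4th instar, 18 genes peaked in epidermis, 6 in fat body and 1 each in testis, ovary and Malpighian tubule. BmorCPG7 and BmorCPG29 had no tissue above background at their highest level. A gene was called highest in a tissue where it was at least 1 log2 unit above each of the other 9 with a largest adjusted p below 0.05 (limma, Benjamini-Hochberg over 37755 probes). On that rule 14 genes were highest in epidermis, where 3.08% of all tested probes passed. These were BmorCPG1, BmorCPG3, BmorCPG4, BmorCPG5, BmorCPG6, BmorCPG8, BmorCPG10, BmorCPG13, BmorCPG17, BmorCPG19, BmorCPG21, BmorCPG22, BmorCPG27 and BmorCPG28. Of these, BmorCPG22 and BmorCPG27 met the filter for testing through epidermis alone and carry no weight in that count. With 1 array for epidermis, a larger share of secreting cells in the sample and more RNA per cell cannot be told apart.

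BmorCPG13 and BmorCPG21 had the widest margins. BmorCPG13 measured 6.47 in epidermis, -6.42 in the 5th instar CC-CA, and -4.16 and -3.09 in the 4th instar CC-CA. Its levels in the other 8 tissues ran from -8.39 to -3.23 (median -6.30). Epidermis was 833-fold above ovary, the next tissue (log2 difference 9.70, largest adjusted p = 2.55e-05, limma). BmorCPG21 measured 4.54 in epidermis, while -9.59 in the 5th instar CC-CA and -6.19 and -7.42 in the 4th instar CC-CA were not well above background. Among its other 8 tissues, at -9.70 to -5.04 (median -8.49), brain at -5.04 was the 1 above background, and the gene's other probe did not detect it there. Epidermis was at least 755-fold above every other tissue for BmorCPG21 (largest adjusted p = 2.13e-05, limma). BmorCPG13 was thus above background in fat body, testis and ovary as well as CC-CA, while BmorCPG21 was detected in epidermis on both probes and in no other tissue on both.

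BmorCPG3, BmorCPG5 and BmorCPG19 also stood far above the next tissue in epidermis. BmorCPG3 measured 5.34 in epidermis, -4.41 in the 5th instar CC-CA, -0.68 and -0.95 in the 4th instar CC-CA, and -4.57 to -2.74 (median -3.54) in the other 8 tissues. BmorCPG5 measured 5.98 in epidermis, -5.45 in the 5th instar CC-CA, 0.04 and -0.20 in the 4th instar CC-CA, and -8.04 to -5.27 (median -6.69) elsewhere. Epidermis exceeded the 4th instar CC-CA, in both cases the next tissue, 71.0-fold for BmorCPG3 and 66.7-fold for BmorCPG5 (largest adjusted p = 5.83e-05 and 6.29e-05, limma). BmorCPG19 reached 1.47 in epidermis and was at background, -9.42, in the 5th instar CC-CA. In the 4th instar CC-CA it measured -6.69 and -6.03, of which the second alone was above background. Among its other 8 tissues, at -9.53 to -6.15 (median -8.03), ovary at -6.15 was the 1 above background. Its epidermal signal was at least 89.8-fold above the rest (largest adjusted p = 4.12e-05, limma).

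BmorCPG6, BmorCPG27 and BmorCPG28 had epidermal margins of similar size to one another. BmorCPG6 measured 0.94 in epidermis, -9.35 in the 5th instar CC-CA, -4.48 and -5.51 in the 4th instar CC-CA, and -9.27 to -5.40 (median -7.97) elsewhere. BmorCPG28 measured 1.08 in epidermis, -7.28 in the 5th instar CC-CA, -5.11 and -4.33 in the 4th instar CC-CA, and -9.27 to -6.70 (median -7.78) elsewhere. Epidermis led the 4th instar CC-CA 61.2-fold for BmorCPG6 and 55.6-fold for BmorCPG28 (largest adjusted p = 0.00016 and 0.000134, limma). BmorCPG27 measured 1.05 in epidermis, -7.98 in the 5th instar CC-CA, -5.82 and -5.25 in the 4th instar CC-CA, and -8.24 to -6.79 (median -7.61) elsewhere, with -5.25 the 1 value besides epidermis above background. Its margin was at least 67.2-fold (largest adjusted p = 5.09e-05, limma), but its other probe read -5.28 in epidermis, 6.33 log2 units lower, and did not pass. BmorCPG27 is therefore a call on 1 probe. The other 13 epidermal calls were made on both probes of the gene.

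The 4 epidermal calls with CC-CA as a close second were BmorCPG4, BmorCPG1, BmorCPG17 and BmorCPG10. BmorCPG4 measured 8.09 in epidermis, -3.62 in the 5th instar CC-CA, and 4.46 and 4.15 in the 4th instar CC-CA. Fat body (0.11), prothoracic gland (0.04), brain (-1.59) and salivary gland (-1.73) also carried it above background, whereas midgut, Malpighian tubule, testis and ovary did not. BmorCPG17 measured 7.35 in epidermis, -0.46 in the 5th instar CC-CA, and 4.11 and 3.27 in the 4th instar CC-CA, with 5 of its other 8 tissues above background, between -6.89 and -0.97. The epidermal margin over the 4th instar CC-CA was 13.8-fold for BmorCPG4 and 12.7-fold for BmorCPG17 (largest adjusted p = 0.000742 and 0.00157, limma). BmorCPG1 measured -1.31 in epidermis, -8.56 in the 5th instar CC-CA, and -5.19 and -4.76 in the 4th instar CC-CA, and was not above background on any of the other 8 tissue arrays. BmorCPG10, the most broadly detected of the group, measured 3.91 in epidermis, -0.94 in the 5th instar CC-CA and 1.48 and 1.40 in the 4th instar CC-CA. Its other 8 tissues lay at -6.17 to -1.02, with 7 of the 8 above background. The margin was 12.7-fold for BmorCPG1 and 5.56-fold for BmorCPG10 (largest adjusted p = 0.000991 and 0.00666, limma).

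BmorCPG8 and BmorCPG22 were called from a low epidermal signal against tissues that were mostly at background. BmorCPG8 measured -1.08 in epidermis, -9.54 in the 5th instar CC-CA, -7.08 and -7.40 in the 4th instar CC-CA, and -9.86 to -5.64 (median -8.01) elsewhere, where prothoracic gland and ovary, but not CC-CA, were above background. It was at least 15.3-fold higher in epidermis (largest adjusted p = 0.000613, limma). BmorCPG22 measured -2.42 in epidermis and nowhere else exceeded background, with -9.16 in the 5th instar CC-CA, -7.88 and -8.65 in the 4th instar CC-CA and -9.08 to -6.79 (median -8.06) in the other 8 tissues. It was at least 6.08-fold higher in epidermis (largest adjusted p = 0.000968, limma). Bounds against tissues at background hold for the processed signal. Under normexp background correction the margins were smaller, at 1.79 log2 units for BmorCPG22, 3.44 for BmorCPG8, 5.03 for BmorCPG27, 5.80 for BmorCPG19 and 8.97 for BmorCPG21, with each call kept. The 4 remaining genes with an epidermal peak did not pass. BmorCPG14 was -0.18 in epidermis and -1.93 in ovary (largest adjusted p = 0.0729), and BmorCPG26 was -5.19 in epidermis with no other array above background (0.0503, limma). The other probe of BmorCPG26 read -6.48 in epidermis and was called highest in fat body, with a margin of 2.33 log2 units. No array was above background on both of its probes, so the peak of BmorCPG26 depends on the probe. BmorCPG23 at -5.28 and BmorCPG2 at -4.98 in epidermis had larger p-values of 0.127 and 0.721, and testis, at -5.30, was close to epidermis for BmorCPG2.

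**Figure D2:**
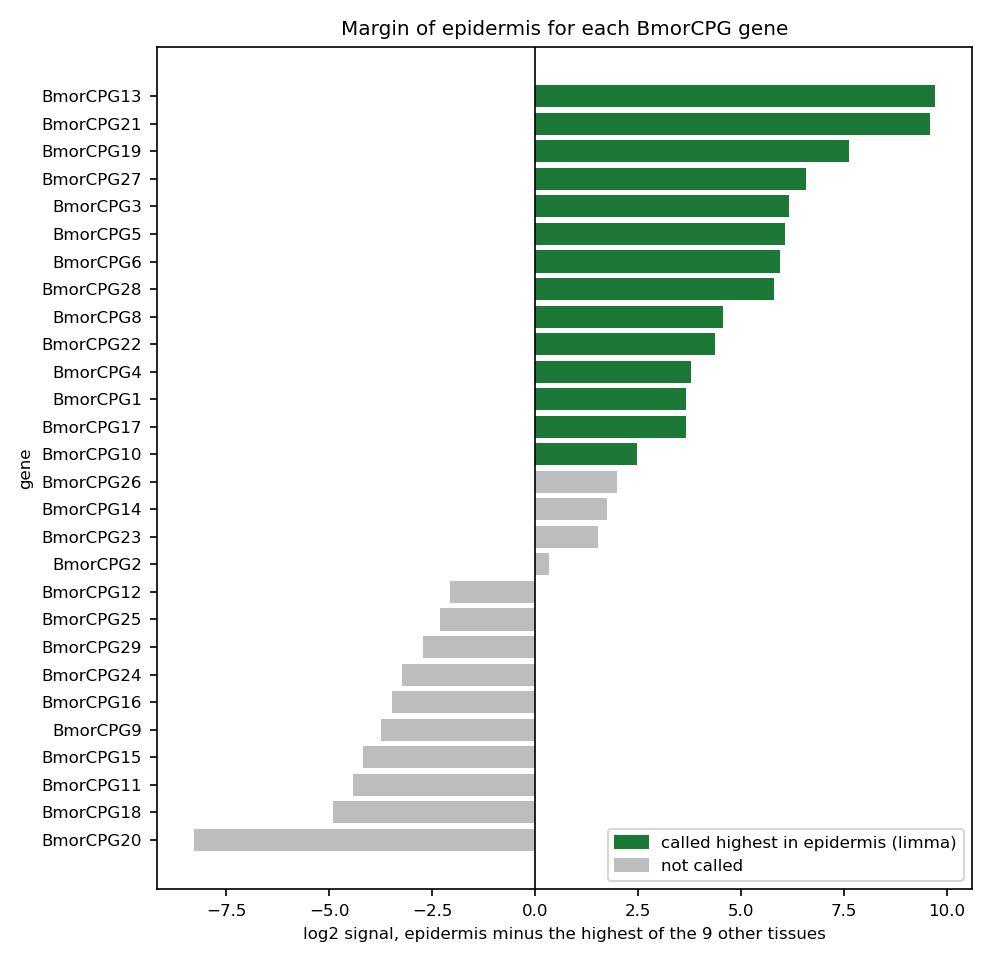
Horizontal bars give, for each of the 28 tested BmorCPG genes, the log2 signal in epidermis minus that in the highest of the 9 other tissues, dim signals included as measured. The 14 genes called highest in epidermis, in green, run from 2.47 for BmorCPG10 to 9.70 for BmorCPG13, and genes with a peak elsewhere lie left of 0.

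Arrays of epidermis, Malpighian tubule, testis and ovary shared 1 slide, and within it all 14 called genes were at least 1 log2 unit higher in epidermis than in each of the other 3. Epidermis and CC-CA lay on different slides, so for that pair tissue and slide cannot be told apart. Quantile normalisation ended 7 of the 14 epidermal calls, those of BmorCPG1, BmorCPG4, BmorCPG6, BmorCPG10, BmorCPG13, BmorCPG17 and BmorCPG28, with adjusted p between 0.0510 and 0.109 (limma). Their margins under it were 2.01 to 9.46 log2 units, and BmorCPG26 entered with an adjusted p of 0.0497.

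Against the 4th instar CC-CA alone, 22 of the 28 tested genes were called higher in epidermis (9.94% of all tested probes). None was called lower (8.48% of probes), 2 had a negative difference, and 0 were lower at an unadjusted p below 0.05 (limma). The median difference was 4.48 log2 units over the 28 genes and 0.14 over all tested probes. The size ran up to 10.09 for BmorCPG13, 1091-fold, and 11.34 for BmorCPG21, where the bound was at least 2131-fold. Among genes with an epidermal peak, 10 were above background on both 4th instar CC-CA arrays, and in these epidermis was 2.47 to 10.09 log2 units higher (median 5.46). Among the 22, BmorCPG22, BmorCPG23, BmorCPG26 and BmorCPG27 met the filter for testing through epidermis alone and carry no weight in that count. BmorCPG25 was at the limit, with an adjusted p of 0.0497 and no array of either tissue above background on the representative probe, and its call was lost under 8 alternatives. Under quantile normalisation the count of genes higher in epidermis was 11.

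Fat body, the storage and metabolic organ of the larva, carried a different set. Its 6 genes were BmorCPG9, BmorCPG11, BmorCPG12, BmorCPG16, BmorCPG18 and BmorCPG24, of which 2 were called, beside 3.23% of all tested probes for fat body and 17.6% for any tissue other than epidermis. BmorCPG16 measured 8.50 in fat body and 5.01 in epidermis. In the 5th instar CC-CA it was -1.46, in the 4th instar CC-CA -1.84 and -0.25, in salivary gland -0.51, and in Malpighian tubule, brain and prothoracic gland -1.42, -1.47 and -1.59. Testis at -6.50 and ovary at -6.98 were low but above background, and midgut at -7.06 was not. Fat body thus exceeded epidermis 11.2-fold (largest adjusted p = 0.0120, limma), while epidermis in turn exceeded the 4th instar CC-CA by 6.06 log2 units (adjusted p = 0.000339, limma).

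BmorCPG24 measured -1.50 in fat body, -4.35 in the 5th instar CC-CA, -4.79 and -4.15 in the 4th instar CC-CA, and -4.74 in epidermis. Its other 7 tissue arrays, between -8.57 and -7.67, were not above background. Fat body led the 4th instar CC-CA 7.80-fold (largest adjusted p = 0.00440, limma). Quantile normalisation ended both fat body calls, with adjusted p = 0.249 for BmorCPG16 and 0.0727 for BmorCPG24. Fat body shared its slide with 1 CC-CA array, prothoracic gland and brain, and both genes were at least 1 log2 unit higher in fat body than in each of these.

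BmorCPG18 had the largest fat body margin but did not pass. It measured 3.31 in fat body, -1.59 in epidermis, -7.02 in the 5th instar CC-CA, and -8.30 (not above background) and -3.65 in the 4th instar CC-CA. Fat body was 29.9-fold above epidermis with a largest adjusted p of 0.0769 (limma). The SD of the CC-CA pair was 3.29 log2 units for this gene, and that pair sets the error of every contrast. Its other probe was called. BmorCPG12 measured -1.26 in fat body and -3.33 in epidermis, 4.22-fold apart (adjusted p = 0.0552, limma), with ovary, at -6.10, the third of the 10 tissues above background. The other probe of BmorCPG12 was called highest in fat body, with a margin of 2.10 log2 units. BmorCPG9 was spread more widely, at -2.97 in fat body, -3.67 in testis, -4.22 in ovary, -4.43 in salivary gland and -4.45 in brain. Epidermis (-6.72), prothoracic gland (-7.99), midgut (-8.13) and Malpighian tubule (-8.54) were at background for BmorCPG9, and fat body did not differ from testis beyond the error (adjusted p = 0.554, limma). BmorCPG11 was above background in fat body at -3.86 and testis at -5.45 (adjusted p = 0.227, limma). It was also above background on 1 of the 4th instar CC-CA arrays, at -5.98, and in the 5th instar CC-CA, at -7.08. The other probe of BmorCPG11 was above background on 2 arrays and was called highest in fat body, with a margin of 1.87 log2 units. The number called highest in a tissue other than epidermis ranged from 0 under quantile normalisation to 6 under normexp background correction.

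Both gonads carried BmorCPG15 and BmorCPG20, from larvae of a later stage than the other tissues, so that tissue and stage cannot be told apart there. BmorCPG15 measured 5.17 in testis, 4.22 in ovary and 1.00 in epidermis, and no other array was above background, the highest being -6.56. Testis exceeded epidermis 18.1-fold and ovary exceeded epidermis 9.33-fold (adjusted p = 0.000711 and 0.00551, limma). Testis and ovary did not differ beyond the error for BmorCPG15 (0.95 log2 units, adjusted p = 0.303, limma). BmorCPG20 measured 2.80 in ovary, 0.79 in testis, -0.75 in fat body, -3.88 in the 5th instar CC-CA and -5.49 in epidermis. The 4th instar CC-CA, at -6.35 and -7.88, and the remaining 5 tissues were not above background for BmorCPG20. Ovary exceeded fat body 11.7-fold (adjusted p = 0.00952), whereas ovary against testis (adjusted p = 0.102) and testis against fat body (0.135, limma) did not pass. The other probe of BmorCPG20 was called highest in ovary, with a margin of 2.06 log2 units. BmorCPG20 was thus detected in both gonads and fat body at levels above its epidermal one.

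Malpighian tubule and ovary were the 2 tissues above background for BmorCPG25, at -4.28 and -5.59 (largest adjusted p = 0.169, limma). Its probes had the lowest agreement of the family, with a correlation of 0.6321 over the 12 arrays, and the other probe peaked in ovary. BmorCPG29 was above background in testis alone, at -5.51. Over the 29 genes the correlation between the 2 probes had a median of 0.969 and was at least 0.95 in 21 genes, and 26 genes peaked in the same tissue on both probes. Cross-hybridisation between similar glycine-rich sequences was not tested.

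The CC-CA of the 5th instar was set against that of the 4th in 18 genes, those above background on the 5th instar array or on both 4th instar arrays. BmorCPG7, BmorCPG8, BmorCPG15, BmorCPG19, BmorCPG21, BmorCPG22, BmorCPG23, BmorCPG25, BmorCPG26, BmorCPG27 and BmorCPG29 met neither condition and were not tested. In the 5th instar, 9 genes were called lower (7.04% of all tested probes) and 3 higher (3.44%), at an adjusted p below 0.05 and a log2 difference of at least 1 (limma, over 32105 probes). The median difference was -1.71 log2 units over the 18 genes and -0.03 over all tested probes. At an unadjusted p below 0.05 the count was 12 as well. All 12 called genes had the same sign against each 4th instar array. The error behind each call comes from that pair, so the shared sign is no separate support. The other probe was called in the same direction in each of these 12 genes.

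BmorCPG4 had the largest difference. It measured -3.62 in the 5th instar and 4.46 and 4.15 in the 4th, and was above background on all 3 arrays. It fell by 7.93 ± 0.45 (SE) on the log2 scale, 243-fold (adjusted p = 7.01e-07, limma). BmorCPG5 followed with -5.45 in the 5th instar against 0.04 and -0.20 in the 4th, which is 41.4-fold lower (adjusted p = 1.02e-05, limma). BmorCPG17 measured -0.46 in the 5th instar and 4.11 and 3.27 in the 4th, 17.8-fold lower (adjusted p = 0.000119, limma). BmorCPG3 measured -4.41 in the 5th instar and -0.68 and -0.95 in the 4th, 12.1-fold lower (adjusted p = 0.000184, limma). In these 4 genes the 5th instar array lay below both 4th instar arrays by far more than these differed from each other, and both stages were measured above background.

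BmorCPG13 and BmorCPG10 were lower too, and above background in both stages. BmorCPG13 measured -6.42 in the 5th instar and -4.16 and -3.09 in the 4th, 6.94-fold lower (adjusted p = 0.00323, limma), a call lost under quantile normalisation at 0.0575. BmorCPG10 measured -0.94 in the 5th instar and 1.48 and 1.40 in the 4th, 5.19-fold lower (adjusted p = 0.00336, limma). BmorCPG6, BmorCPG1 and BmorCPG28 were no longer above background in the 5th instar, so that their falls are bounds. On the processed signal, BmorCPG6 was at least 5.28-fold lower, BmorCPG1 at least 5.35-fold and BmorCPG28 at least 5.91-fold (adjusted p = 0.000118, 0.000214 and 0.00367, limma). These bounds do not carry over to normexp background correction, where the log2 differences were -1.24, -1.25 and -1.05 in the same order. BmorCPG13, at -1.73 log2 units, also moved under it. The call for BmorCPG28 was lost under quantile normalisation and under normexp background correction, with an adjusted p of up to 0.0702.

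**Figure D3:**
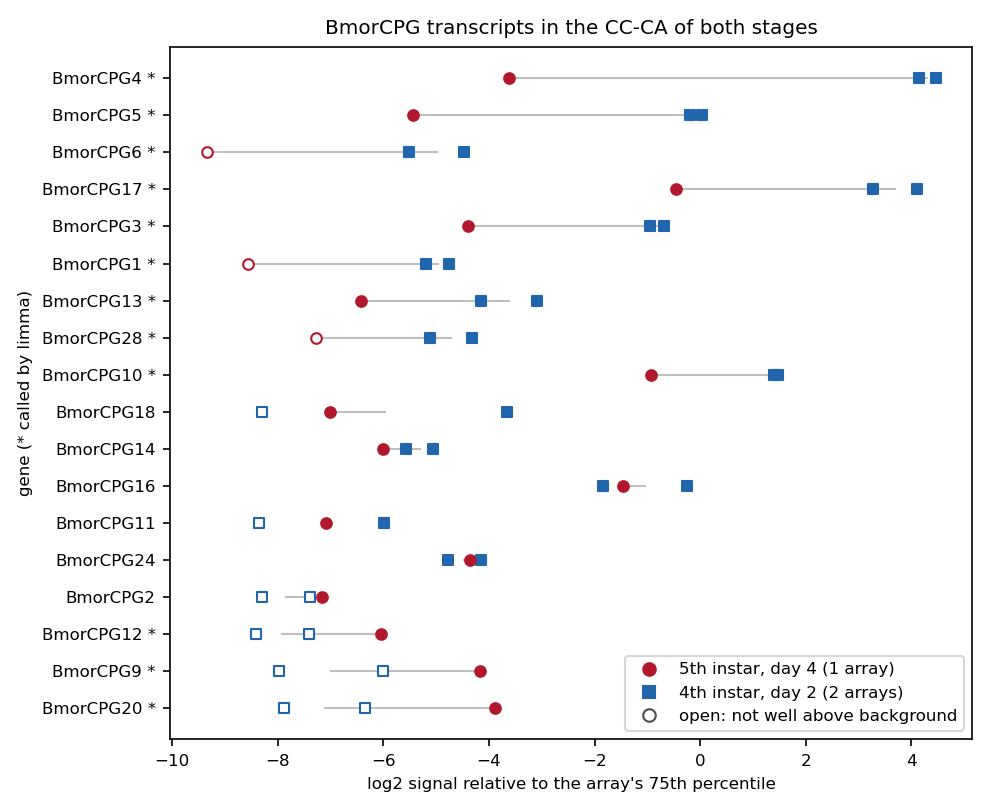
Log2 level relative to the array's 75th percentile for the 18 tested BmorCPG genes in the CC-CA, with the 5th instar array as circles and both 4th instar arrays as squares, open where not well above background, and a line to the 4th instar mean. From BmorCPG4 to BmorCPG10 the circle lies left of both squares, and for BmorCPG12, BmorCPG9 and BmorCPG20 it lies right of both.

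Higher in the 5th instar were BmorCPG20, BmorCPG9 and BmorCPG12, none of them above background on a 4th instar CC-CA array, so that each entered the test through the 5th instar array alone. BmorCPG20 measured -3.88 in the 5th instar and -6.35 and -7.88 in the 4th, at least 6.22-fold higher (3.23 ± 0.58 SE on the log2 scale, adjusted p = 0.00277, limma). BmorCPG9 measured -4.17 in the 5th instar and -6.02 and -7.98 in the 4th, at least 4.92-fold higher (adjusted p = 0.0142, limma), and a robust estimate of the spread raised its p to 0.182. BmorCPG12 measured -6.04 in the 5th instar and -8.42 and -7.41 in the 4th, at least 1.39-fold higher (adjusted p = 0.0323, limma), and 6 alternatives ended that call. Under normexp background correction the differences of BmorCPG20, BmorCPG9 and BmorCPG12 were 1.81, 1.66 and 0.71 log2 units, below the bounds of BmorCPG20 and BmorCPG9 on the processed signal. BmorCPG2, BmorCPG11, BmorCPG14, BmorCPG16, BmorCPG18 and BmorCPG24 were tested and not called, with differences of -1.04 to 0.67.

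Within the slide that held the 5th instar array and the second 4th instar array, the 6 lower genes above background on both arrays differed by -2.34 to -7.77 log2 units. The bounds there were at least 3.68-fold lower for BmorCPG6, 6.19-fold for BmorCPG1 and 7.76-fold for BmorCPG28, and at least 8.24-fold higher for BmorCPG20, 6.74-fold for BmorCPG9 and 1.85-fold for BmorCPG12. These differences rest on 1 array a stage and have no test. The tissue ranking and the stage comparison share the 4th instar CC-CA arrays, and their values are set side by side as a description. Each of the 9 genes lower in the 5th instar peaked in epidermis, with margins of 2.47 to 9.70. Of all CPG genes tested by stage, 11 peaked in epidermis and 7 did not. The 3 higher genes were tested because they were above background in the 5th instar, so their number carries no weight as a pattern. Among the lower genes, BmorCPG1, BmorCPG6 and BmorCPG28 likewise entered through the 4th instar arrays alone and carry no weight in that count. The other lower genes were above background in both stages.

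Other transcripts high in single tissues also differed between the CC-CA samples. Sequences outside the named cuticular families that were at least 3 log2 units higher in epidermis than in the 8 other single-array tissues numbered 525, and unnamed ones among them may include cuticle genes. Their summed level, as multiples of the 75th percentile, was 755 in the 5th instar CC-CA and 1745 and 1785 in the 4th, beside 17733 in epidermis. Of the 421 tested, 209 were called lower in the 5th instar and 22 higher, with a median of -1.55. The median was -2.69 over 94 tested salivary gland sequences, -1.43 over 170 of midgut, 0.08 over 389 of fat body and 0.96 over 308 of brain. Summed salivary gland sequences stood at 72.4 in the 5th instar and 261 and 270 in the 4th. For midgut the sums were 17.7 in the 5th instar and 126 and 145 in the 4th. Summed fat body sequences stood at 318 in the 5th instar and 362 and 467 in the 4th, and summed brain sequences at 1078 in the 5th instar and 559 and 587 in the 4th. What part other tissue in the dissected glands had in the CPG differences was not tested.

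These 525 sequences, of which 391 were above background on both 4th instar CC-CA arrays, exceeded that tissue in epidermis by a median of 4.51 log2 units (quartiles 3.27 and 6.26). Among the CPG genes called highest in epidermis and above background on both arrays, the excess was below the lower quartile for BmorCPG10 (2.47) and above the upper one for BmorCPG13 (10.09). BmorCPG4, BmorCPG17 and BmorCPG1, at 3.79, 3.66 and 3.67, lay between the quartiles. So did BmorCPG3, BmorCPG5, BmorCPG6 and BmorCPG28, at 6.15, 6.06, 5.94 and 5.80. The CPG calls required an excess over CC-CA, whereas the 525 sequences were chosen without CC-CA and without a filter on their detection there. The places of the CPG genes among the quartiles are therefore a description and carry no weight.

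In the RefSeq gene order for the species, 28 of the 29 genes were matched by a listed synonym and BmorCPG29 was not. The array's own genome build is not given, so the order alone was used. Directly adjacent CPG genes formed 5 runs that held 16 members. BmorCPG25, BmorCPG26, BmorCPG27 and BmorCPG28 formed a run that 1 non-coding RNA gene separated from BmorCPG2, BmorCPG3, BmorCPG1, BmorCPG4 and BmorCPG5. Each of the 5 genes of that second run peaked in epidermis, and 4 of them, all but BmorCPG2, were lower in the 5th instar CC-CA. BmorCPG7 lay next to BmorCPG8, and BmorCPG22 next to BmorCPG23.

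Adjacent genes did not always share a tissue. BmorCPG11, BmorCPG12 and BmorCPG13 were neighbours. Epidermis was 10.14 log2 units above fat body for BmorCPG13. Fat body was at least 4.86-fold above epidermis, which was at background, for BmorCPG11 (adjusted p = 0.0118, limma), and the difference of -2.08 for BmorCPG12 did not pass (adjusted p = 0.0552, limma). BmorCPG18, with its peak in fat body, was separated by 3 genes from BmorCPG17, which peaked in epidermis. BmorCPG21 lay between BmorCPR41 and BmorCPR40, of the CPR family. BmorCPR40 was above background in epidermis alone (5.57), while BmorCPR41 measured 7.25 in epidermis and fell by 6.38 log2 units in the 5th instar CC-CA (adjusted p = 3.13e-06, limma). BmorCPG22 was adjacent to BmorCPFL3, which measured -2.27 in epidermis.

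**Figure D4:**
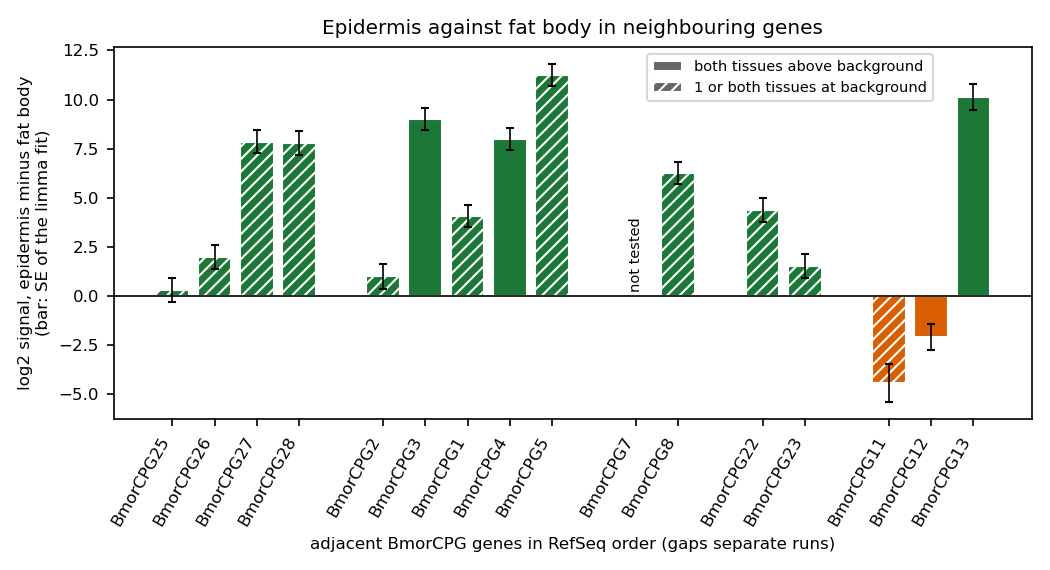
Bars give log2 signal in epidermis minus fat body for CPG genes that are adjacent in the RefSeq order, grouped by run, with the SE of the limma fit. Hatched bars include a tissue at background and are not exact differences. In the run at the right, BmorCPG13 stands at 10.14 while its neighbours BmorCPG11 and BmorCPG12 are below 0.

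Other cuticular protein families give a scale for these counts. Among BmorCPR1 to BmorCPR56, the RR-1 type often found in soft cuticle, 23 of 45 tested genes were called highest in epidermis and 9 in another tissue, against 14 and 2 of 28 CPG genes. Among BmorCPR57 to BmorCPR148, the RR-2 type often found in hard cuticle, the counts were 9 and 18 of 61. BmorCPH, hypothetical cuticular proteins without a family motif, had 5 and 8 of 28, and BmorCPT, BmorCPF and BmorCPFL together 4 and 2 of 9. In the 5th instar CC-CA, 13 of 29 tested RR-1 genes were called lower and 3 higher, and 4 of 28 RR-2 genes lower and 11 higher. BmorCPH had 8 of 20 lower and 1 higher, and BmorCPT, BmorCPF and BmorCPFL together 3 of 4 lower and 1 higher. Medians over tested genes were -0.63 for RR-1, 0.15 for RR-2, -1.58 for BmorCPH and -2.85 for BmorCPT, BmorCPF and BmorCPFL, beside -1.71 for CPG, and no difference between families was tested.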

How the data were processed

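Members and gene lists were chosen with earlier results of these data known. The deposited scanner files hold Cy3 intensity per spot. Per the file headers, Agilent Feature Extraction 9.5.3.1 subtracted background, combined 2 scan gains and wrote the processed signal intensity, without scaling arrays to each other. The deposited value table, also intensity, equals each array's processed signal divided by 1 constant of unstated meaning, so how its columns were centred is unknown. The authors' files also carry the software's marks for background, saturation and outliers.

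Here, log2 processed signal minus the array's 75th percentile was taken, outlier spots were left out, spots of a probe were averaged, and 224 of 42564 probes with a missing value were dropped. No member spot was saturated or an outlier. limma 3.58.1 in R 4.3.3 fitted 11 group means to 12 arrays. This leaves 1 residual degree of freedom, and eBayes added 11.3 prior degrees of freedom for the stage and 7.51 for the tissue comparison. Slide as a block would leave none. Probes entered the tissue comparisons if well above background on every array of 1 of 10 tissues (37755 probes), and the stage comparison if so on the 5th instar or both 4th instar CC-CA arrays (32105 probes). The p-values were adjusted by Benjamini and Hochberg over all tested probes. "At least" folds set the brighter mean against, for each array of the dimmer group, the lowest signal well above background or the probe's own signal if higher. A gene is represented by its probe with the highest mean level. The values behind each call are given for the 19 members called in the stage comparison or highest in 1 tissue. Their tissues away from the peak are mostly given as lowest, median and highest. By the rule for named genes, the 10 others were to be given by range and counts, but single levels are printed for them too. The procedure was tested on simulated data with the same spread on all arrays and no slide effect. Such data cannot test whether single arrays vary like the CC-CA pair. The number of arrays limits the precision. No probe or protein sequences were used here.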

Additional observations from a re-analysis of the deposited data

How the results depend on the processing

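Under 11 alternatives, the 9 genes lower and 3 higher in the 5th instar CC-CA became 7 to 13 and 2 to 3, apart from the filter for probes well above background on all arrays, which left BmorCPG3 alone. That filter gave 1 lower and 0 higher gene by stage, 1 highest in epidermis, 0 highest elsewhere and 1 higher in epidermis than in CC-CA. Quantile normalisation gave 8 genes highest in epidermis in place of 14, 0 in place of 2 highest in another tissue, and 11 in place of 22 higher in epidermis than in CC-CA. The number highest in another tissue was 6 under normexp background correction, chosen after seeing the data because the files hold no mean signal, 5 for the deposited value table, 5 with a floor under dim signals, 5 with a robust spread, and 4 each with a trended spread and with the mean over probes. The cause was not tested.

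Reversed values concerned differences that were not called. BmorCPG11 by stage was -0.0101 under normexp, -0.63 with the floor and -0.0779 with the mean over probes. BmorCPG2 by stage was -0.65 with the floor and -0.47 with the mean over probes, and its epidermal margin was -0.0449 under normexp. The epidermal margin of BmorCPG26 was -0.10 under normexp, -0.17 with the floor and -0.17 with the mean over probes, that of BmorCPG23 was -0.26 with the floor, and the Malpighian tubule margin of BmorCPG25 was -0.71 with the mean over probes.

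The median stage difference over all probes was 0.27 for the deposited value table, 0.12 under quantile normalisation and -0.23 with no filter, against -0.03. Over the members it was -0.98 under normexp, -0.93 with no filter (29 genes) and -2.26 with the floor, against -1.71. Leaving out either 4th instar CC-CA array leaves no residual degrees of freedom, so those values have no test. Without replicate 1 or 2, the 9 lower genes kept their sign, between -2.17 and -8.08, as did the 3 higher ones, between 1.37 and 4.00, with BmorCPG9 at 3.81 or 1.84. These genes were called against the spread of that pair, so a kept sign is no separate support. Uncalled genes turned sign: BmorCPG18 was -3.37 or 1.28, BmorCPG11 1.28 or -1.10, BmorCPG16 -1.21 or 0.38 and BmorCPG24 -0.21 or 0.43. No paired analysis was possible because the groups compared share fewer than 2 replicate numbers. Signals near background limit the genes given as bounds.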
